A study of Danio rerio with 12 samples.

Results

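The genes described here mark the tubule and duct of the zebrafish pronephros, the embryonic kidney: slc20a1a, trpm7, cubn, lrp2a, slc12a1, slc12a3, clcnk, cdh17 and pax2a. Rows of the deposited tables were taken when their Ensembl identifier carried 1 of 10 fixed names, with capitalised names of the same gene included, which gave 13 of 32520 rows, and the 11 rows of the 9 genes above are reported. For 7 genes a single row was found. The names SLC20A1 and PAX2 each belonged to 2 identifiers, and the name table did not say which of them is the a paralog, so both rows are given and are called by name and identifier (SLC20A1 ENSDARG00000010641 and ENSDARG00000020114, PAX2 ENSDARG00000028148 and ENSDARG00000032578).

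RNA of whole zebrafish larvae at 120 hours post fertilization was sequenced, with 30 larvae pooled per sample, in 6 samples of elmo2-/- and 6 samples of elmo2+/+ larvae. The elmo2-/- line carries a CRISPR/Cas9 frameshift deletion in elmo2, an adaptor gene of the ELMO/DOCK complex that activates Rac, and both genotypes were in the Tg(fli1:EGFP) background, in which endothelial cells express EGFP. The mutation is predicted to truncate the protein, and larvae up to this age were kept with or without the pigment inhibitor PTU, which was not given per sample. The study compared the genotypes because the kidney, vasculature and glucose homeostasis were under examination in this line.

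Whole larvae hold the pronephros as a small part beside intestine, liver, skin and brain, where several of these genes are also transcribed. In such bulk samples fewer cells of a type and less RNA per cell cannot be told apart. Depth lay between 20116203 and 20560518 estimated counts in elmo2-/- samples and between 20245232 and 20939679 in elmo2+/+ samples. The elmo2 gene itself was measured at 31.4 to 51.6 CPM (counts scaled to a common library size) with a median of 38.9 in elmo2-/- samples, against 56.3 to 92.4 CPM with a median of 81.1 in elmo2+/+ samples. These ranges did not overlap, and the log2 fold change of elmo2 was -0.93 (SE 0.15, two-sided exact permutation p = 0.00216, the smallest that 924 splits can give). Its edgeR adjusted p over 22259 genes was 0.642. The adjusted p of elmo2 was 0.00012 with DESeq2, and 0.0327 and 0.0335 with limma on log2(TPM + 1) and log2(TPM + 0.1). The library numbers in the labels were 13 to 16, 7 and 8 in elmo2-/- samples and 1 to 6 in elmo2+/+ samples, and the effect of these numbers cannot be told apart from that of genotype.

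The zebrafish pronephros is a pair of simple nephrons that filter blood at a shared glomerulus and then recover solutes along a segmented tubule that drains through the pronephric duct. The proximal segments take up phosphate, glucose, amino acids and filtered protein, the distal segments recover salt, and the duct carries the urine to the cloaca. Each segment is recognised by its own transporters, while Pax2 and Pax8 transcription factors specify the tubule epithelium as a whole.

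No difference between elmo2-/- and elmo2+/+ larvae passed the test for any of the 11 pronephric rows. With edgeR's quasi-likelihood test, 0 of 11 rows had an adjusted p under 0.05, where 0% of all 22259 genes tested had one, and 0 of 11 had an unadjusted p under 0.05, where 4.68% of all genes had one. The adjusted count was also 0 of 11 by DESeq2 and by limma on either TPM scale, where the unadjusted counts were 0, 1 and 1, beside 4.36%, 4.5% and 4.48% of all genes. In 0 of 11 rows were the CPM of the genotypes free of overlap, against 0.198% of all genes. The estimates were lower in elmo2-/- for 9 rows and higher for 2, with a median log2 fold change of -0.078 beside -0.00061 for all genes, of which 50.2% were lower. The edgeR adjusted p was 0.9997 for 10 rows and 0.9998 for clcnk. On the log2 scale, the widest 95% intervals of the difference belonged to SLC20A1 ENSDARG00000020114, with folds from 0.649 to 1.36, and to cdh17, with folds from 0.709 to 1.36, and the narrowest to trpm7, with folds from 0.855 to 1.01.

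**Figure D1:**
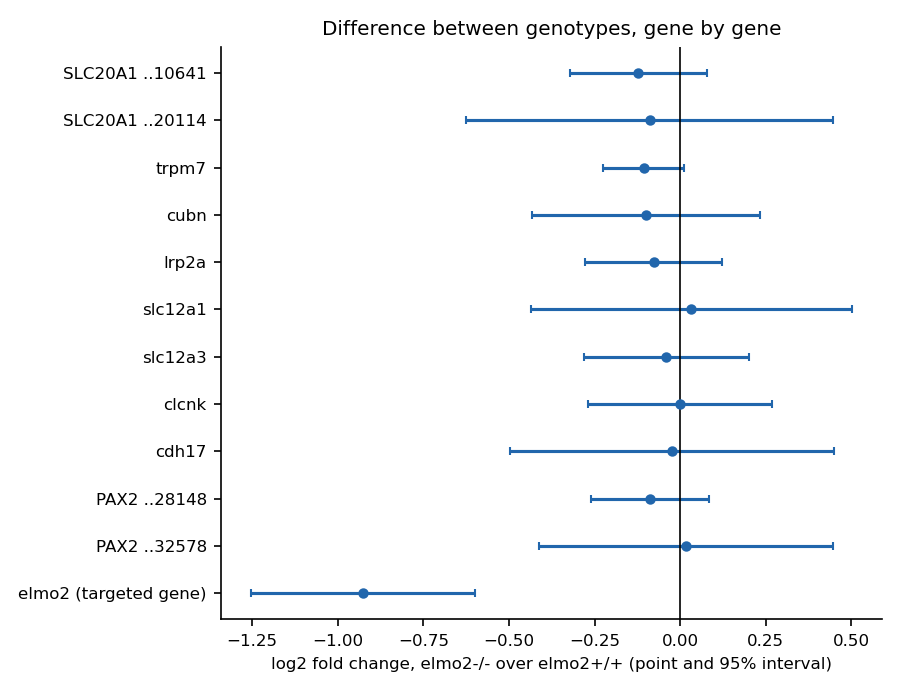
Log2 fold change of elmo2-/- over elmo2+/+ (x axis) for the 11 pronephric rows and for elmo2 (y axis, rows with a shared name carry the last digits of their identifier), as the edgeR estimate with its 95% interval over 6 samples per genotype. All 11 intervals of the pronephric rows include 0, and that of elmo2, centred on -0.93, does not.

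The proximal genes comprised the phosphate transporter Slc20a1, whose a paralog marks the proximal convoluted segment, the channel kinase Trpm7, which marks the proximal straight segment and is also found in other tissues, and the endocytic receptors cubilin (cubn) and megalin (lrp2a), which bind filtered protein at the apical membrane. SLC20A1 ENSDARG00000010641 had a lowest, median and highest value of 86.3, 99.9 and 112 CPM in elmo2-/- samples, against 89.1, 108 and 128 CPM in elmo2+/+ samples. SLC20A1 ENSDARG00000020114 had 6.90, 9.42 and 13.8 CPM in elmo2-/- samples, against 6.70, 8.89 and 16.3 CPM in elmo2+/+ samples. Both SLC20A1 rows overlapped over most of their range, with log2 fold changes of -0.12 (SE 0.093, exact permutation p = 0.266) and -0.089 (SE 0.25, exact permutation p = 0.877). The estimate for SLC20A1 ENSDARG00000020114 was 0.034 and 0.040 with limma on log2(TPM + 1) and log2(TPM + 0.1).

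trpm7 was the row with the smallest unadjusted p of the 11. Its lowest, median and highest values were 33.9, 35.9 and 40.0 CPM in elmo2-/- samples, against 37.3, 39.6 and 40.2 CPM in elmo2+/+ samples. A single elmo2-/- sample lay above the elmo2+/+ median, but the ranges overlapped. The log2 fold change of trpm7 was -0.11 (SE 0.056, edgeR adjusted p = 0.9997). The exact permutation test of the same values gave an unadjusted p of 0.0281, and 5.12% of all genes had an exact p under 0.05. The unadjusted edgeR test did not pass, and it did with limma on log2(TPM + 1) or log2(TPM + 0.1), where the estimates were -0.17 and -0.18, and in edgeR without elmo2-/- replicate 4 (-0.14) or elmo2-/- replicate 6 (-0.13), where 3.99% and 4.09% of all genes passed. After adjustment the gene did not pass in any setting run, with a smallest adjusted p of 0.742 over edgeR, DESeq2 and limma.

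The endocytic receptors differed less than their spread. cubn ranged over 14.1, 19.6 and 25.1 CPM (lowest, median and highest) in elmo2-/- samples, against 15.9, 20.8 and 27.5 CPM in elmo2+/+ samples. lrp2a had 28.9, 31.1 and 34.2 CPM in elmo2-/- samples, against 28.0, 32.8 and 41.6 CPM in elmo2+/+ samples. The elmo2-/- values of lrp2a all lay inside the elmo2+/+ range, and those of cubn extended below it in 1 sample. The log2 fold changes were -0.10 (SE 0.15, exact permutation p = 0.543) for cubn and -0.078 (SE 0.093, exact permutation p = 0.524) for lrp2a.

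The distal genes comprised slc12a1, the Na-K-2Cl cotransporter of the early distal segment, slc12a3, the Na-Cl cotransporter of the late distal segment, and clcnk, a chloride channel that returns chloride to the blood side. slc12a1 had 2.61, 4.38 and 6.16 CPM (lowest, median and highest) in elmo2-/- samples, against 3.15, 3.98 and 6.14 CPM in elmo2+/+ samples. slc12a3 had 11.9, 15.2 and 17.4 CPM in elmo2-/- samples, against 12.2, 15.8 and 17.1 CPM in elmo2+/+ samples. clcnk had 2.28, 2.41 and 2.84 CPM in elmo2-/- samples, against 1.92, 2.48 and 2.92 CPM in elmo2+/+ samples, from 39 to 59 estimated counts per sample. All 3 genes overlapped widely between genotypes. The log2 fold changes were 0.033 (SE 0.22) for slc12a1, -0.042 (SE 0.11) for slc12a3 and -0.00094 (SE 0.13) for clcnk, with exact permutation p-values of 0.968, 0.697 and 0.939.

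The elmo2-/- samples were also read by library number. In slc12a3 the 2 elmo2-/- samples with library numbers 7 and 8 were at 11.94 and 12.01 CPM, below every elmo2+/+ sample, and the 4 with library numbers 13 to 16 lay between 14.1 and 17.4 CPM. With library numbers 7 and 8 only, 10.7% of all genes tested were free of overlap with elmo2+/+. Fitted with library numbers 7 and 8 only, the log2 fold change of slc12a3 was -0.34, past the unadjusted threshold of 0.05 but not the adjusted (edgeR adjusted p = 0.756), where 6.53% of all genes passed the unadjusted threshold, and with 13 to 16 only it was 0.088. SLC20A1 ENSDARG00000020114 was the other row of the 11 in which both samples of library numbers 7 and 8, at 6.90 and 7.40 CPM, lay below all 4 of library numbers 13 to 16, at 7.43 to 13.8 CPM, and its estimates were -0.53 with library numbers 7 and 8 only and 0.090 with 13 to 16 only. These 2 of 11 rows stand beside 7.72% of all genes with both samples below, and 0 of 11 rows beside 7.93% with both above. For cubn the estimate was -0.43 with library numbers 7 and 8 only and 0.039 with 13 to 16 only, and neither passed. The part of the library numbers in these values was not tested.

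The genes of the whole tubule and duct comprised cdh17, a cadherin of the pronephric epithelium that in mammals is known from the intestine, and the transcription factor Pax2. cdh17 had 90.0, 127 and 188 CPM (lowest, median and highest) in elmo2-/- samples, against 74.9, 134 and 188 CPM in elmo2+/+ samples. The genotypes had the same upper end, and the log2 fold change was -0.024 (SE 0.22, exact permutation p = 0.991). No elmo2-/- sample fell below the lowest elmo2+/+ sample.

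Pax2 factors act in the pronephros, the midbrain-hindbrain boundary, the ear, the eye and the thyroid. PAX2 ENSDARG00000028148 had 35.4, 38.4 and 40.7 CPM in elmo2-/- samples, against 34.4, 41.4 and 45.6 CPM in elmo2+/+ samples. PAX2 ENSDARG00000032578 had 3.84, 4.51 and 5.06 CPM in elmo2-/- samples, against 1.81, 4.59 and 5.55 CPM in elmo2+/+ samples. In PAX2 ENSDARG00000028148, 0 of 6 elmo2-/- samples lay above the elmo2+/+ median, although all 6 lay inside the elmo2+/+ range, and the log2 fold change was -0.088 (SE 0.081, exact permutation p = 0.357). That of PAX2 ENSDARG00000032578 was 0.017 (SE 0.20, exact permutation p = 0.935) and rested on 36 to 114 estimated counts per sample.

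**Figure D2:**
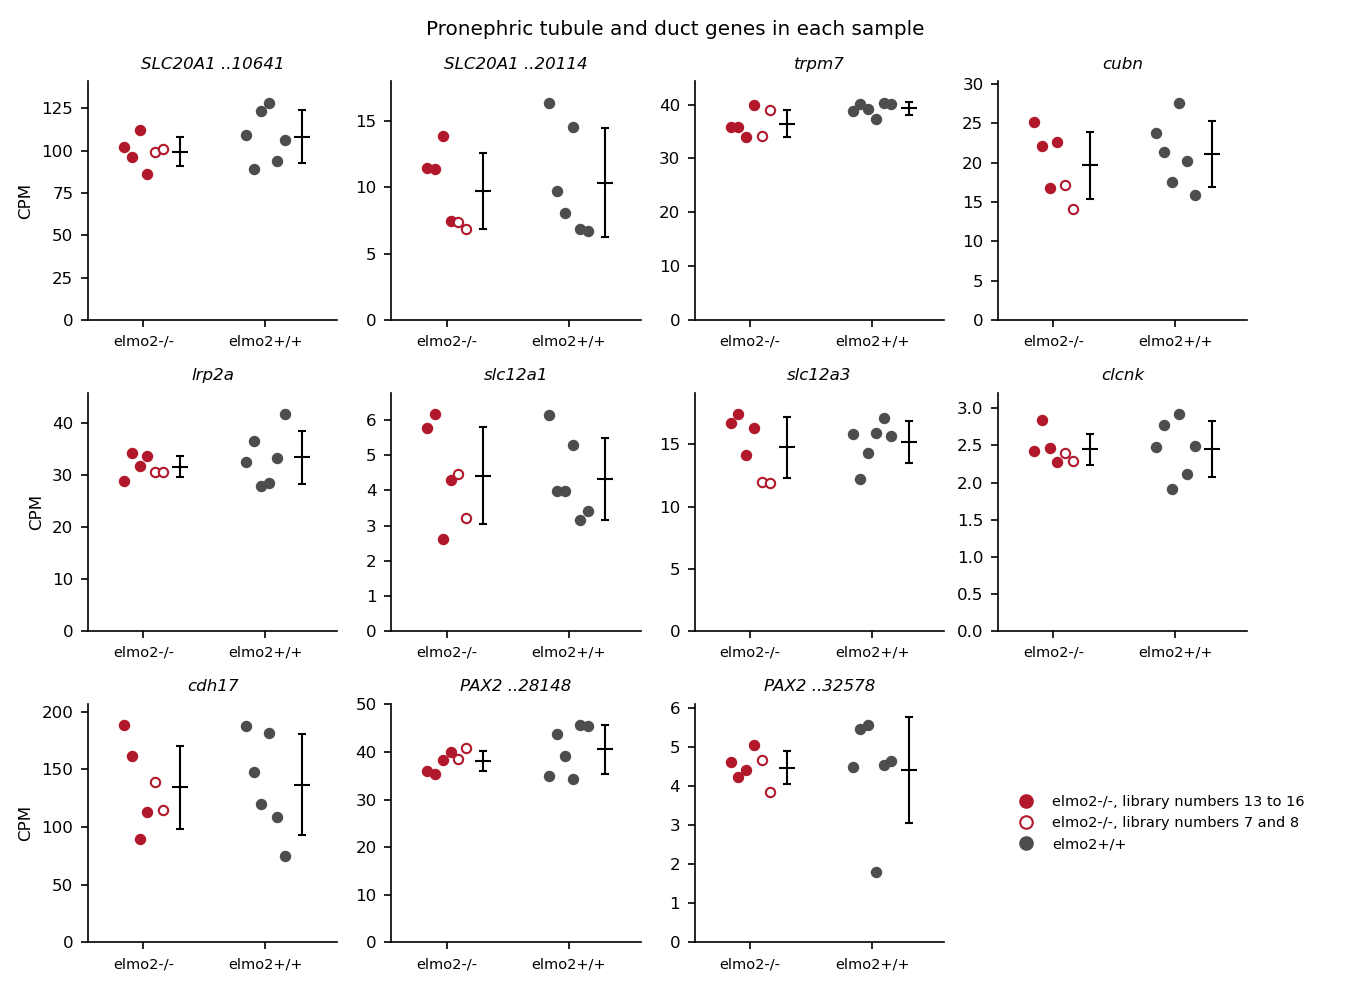
CPM (y axis, from 0) of the 11 pronephric rows in each sample of elmo2-/- and elmo2+/+ larvae, with the mean and SD of 6 samples beside the points. Open points are the elmo2-/- samples with library numbers 7 and 8, which lie at 11.94 and 12.01 CPM in slc12a3, and the genotypes overlap in every panel.

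Levels of different genes were compared in TPM, which takes transcript length into account. cdh17 was the most abundant of the rows at 52.4 ± 17.3 TPM (SD, n = 12), followed by SLC20A1 ENSDARG00000010641 at 38.8 ± 5.13 TPM, and cdh17 was the higher of this pair in 9 of 12 samples. Among all genes tested these means stood at the percentiles 92.5 and 89.8. PAX2 ENSDARG00000028148 at 17.4 ± 1.98 TPM and trpm7 at 16.6 ± 1.77 TPM came next and kept their order in 8 of 12 samples, and SLC20A1 ENSDARG00000010641 was above both in all 12.

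A lower tier held SLC20A1 ENSDARG00000020114 at 6.12 ± 1.96 TPM and slc12a3 at 4.92 ± 0.821 TPM (SD, n = 12 each). Their ranges overlapped, and they kept their order in 9 of 12 samples. The late distal slc12a3 was above the early distal slc12a1, at 2.82 ± 0.915 TPM, in all 12 samples. PAX2 ENSDARG00000032578, cubn and lrp2a followed with means between 2.24 and 2.57 TPM and were not separated from each other or from slc12a1 by their spread. clcnk was lowest at 1.34 ± 0.186 TPM, at the percentile 12.4 of all genes, and lrp2a was above it in all 12 samples. The order was a description of whole larvae and gave no level within the pronephros.

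**Figure D3:**
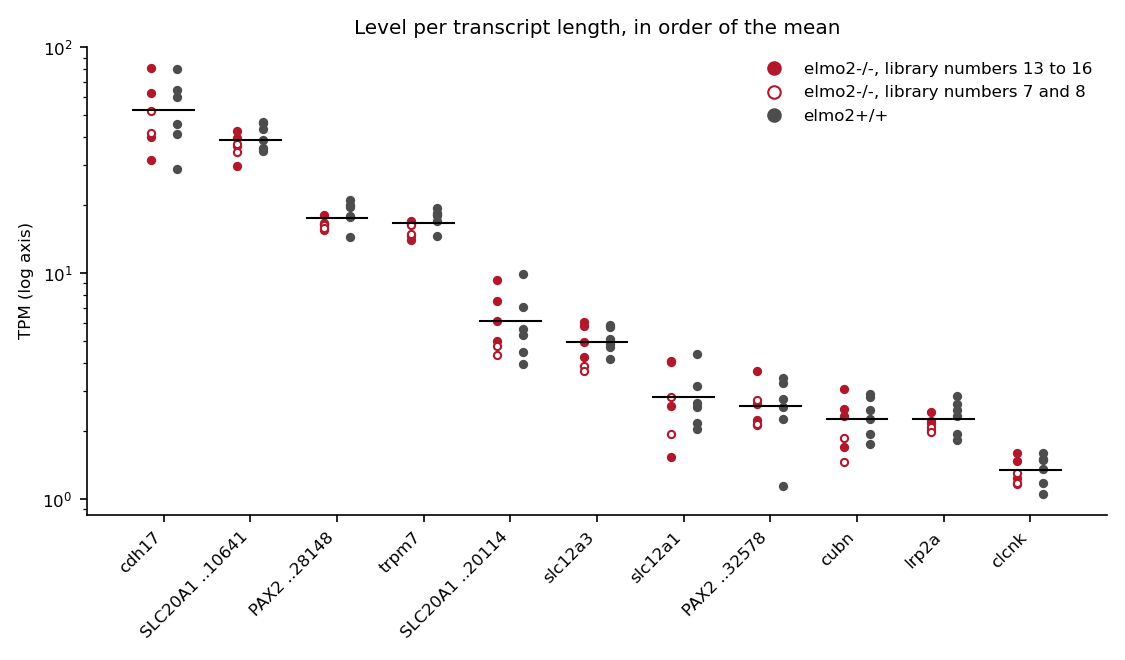
TPM of the 11 pronephric rows (log y axis) in order of their mean over 12 samples (black bars), with elmo2-/- points left of elmo2+/+ points and open points for library numbers 7 and 8. The means span 52.4 TPM for cdh17 to 1.34 TPM for clcnk, and neighbouring genes mostly overlap.

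Ratios of segment genes within a sample do not depend on how samples were scaled to each other. The log2 TPM ratio of slc12a1 over slc12a3, early over late distal, was -0.82 ± 0.38 in elmo2-/- and -0.88 ± 0.42 in elmo2+/+ samples (SD, n = 6 each). That of cubn over lrp2a was -0.040 ± 0.32 in elmo2-/- and 0.00066 ± 0.44 in elmo2+/+ samples. Both ratios overlapped between genotypes, and their differences of 0.069 and -0.041 were below 1 SD. The name table did not say which SLC20A1 row is slc20a1a, the proximal convoluted gene, so its ratio to trpm7 was taken with both rows. The ratio of SLC20A1 ENSDARG00000020114 over trpm7 was -1.38 ± 0.49 in elmo2-/- and -1.60 ± 0.54 in elmo2+/+ samples. With SLC20A1 ENSDARG00000010641 in its place it was 1.24 ± 0.25 in elmo2-/- and 1.21 ± 0.28 in elmo2+/+ samples. The ratio of clcnk over cdh17 was -5.22 ± 0.36 in elmo2-/- and -5.23 ± 0.45 in elmo2+/+ samples. In each of the 5 ratios the genotypes overlapped.

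While the genotypes overlapped in every row, the pools of larvae differed widely, and some of the genes varied with those of other tissues. cdh17 spanned a 2.51-fold range over the 12 samples (coefficient of variation 28.3%), and trpm7 spanned 1.19-fold (6.24%). Correlations of log2 CPM over 12 samples were computed for all 55 pairs of rows with 100000 permutations and Benjamini-Hochberg adjustment over the pairs. By Pearson's r, 1 pair had an adjusted p under 0.05.

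The pair was slc12a1 with cdh17, with Pearson's r of 0.857 (permutation p = 0.00063, adjusted p = 0.0347) and Spearman's rho of 0.832 (permutation p = 0.00141, adjusted p = 0.0388). Without the 2 samples farthest from the median of slc12a1, r was 0.844, and it was 0.923 within elmo2-/- and 0.848 within elmo2+/+ samples. The elmo2+/+ samples carry library numbers 1 to 6, so their r is a value within those numbers, and library numbers 13 to 16 with 4 samples and 7 and 8 with 2 were too few for one. The count of pairs by Pearson's r depended on the scale, with 5 of 55 on log2(TPM + 0.1) and 2 with genotype means removed. By Spearman's rho another pair also passed, SLC20A1 ENSDARG00000020114 with PAX2 ENSDARG00000028148, at -0.867 (permutation p = 0.00056, adjusted p = 0.0308). Pearson's r of that pair was -0.769 (adjusted permutation p = 0.0961) and, on log2(TPM + 0.1), -0.255.

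Many other genes varied with cdh17. Of 22245 genes tested outside the pronephric rows, 3.36% correlated with cdh17 at an r of at least 0.857 and 0.593% did so with slc12a1, where 0.0225% did with trpm7 and 0.0135% with clcnk. The distal cotransporters slc12a1 and slc12a3 were not a pair that passed, nor were the endocytic receptors cubn and lrp2a.

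**Figure D4:**
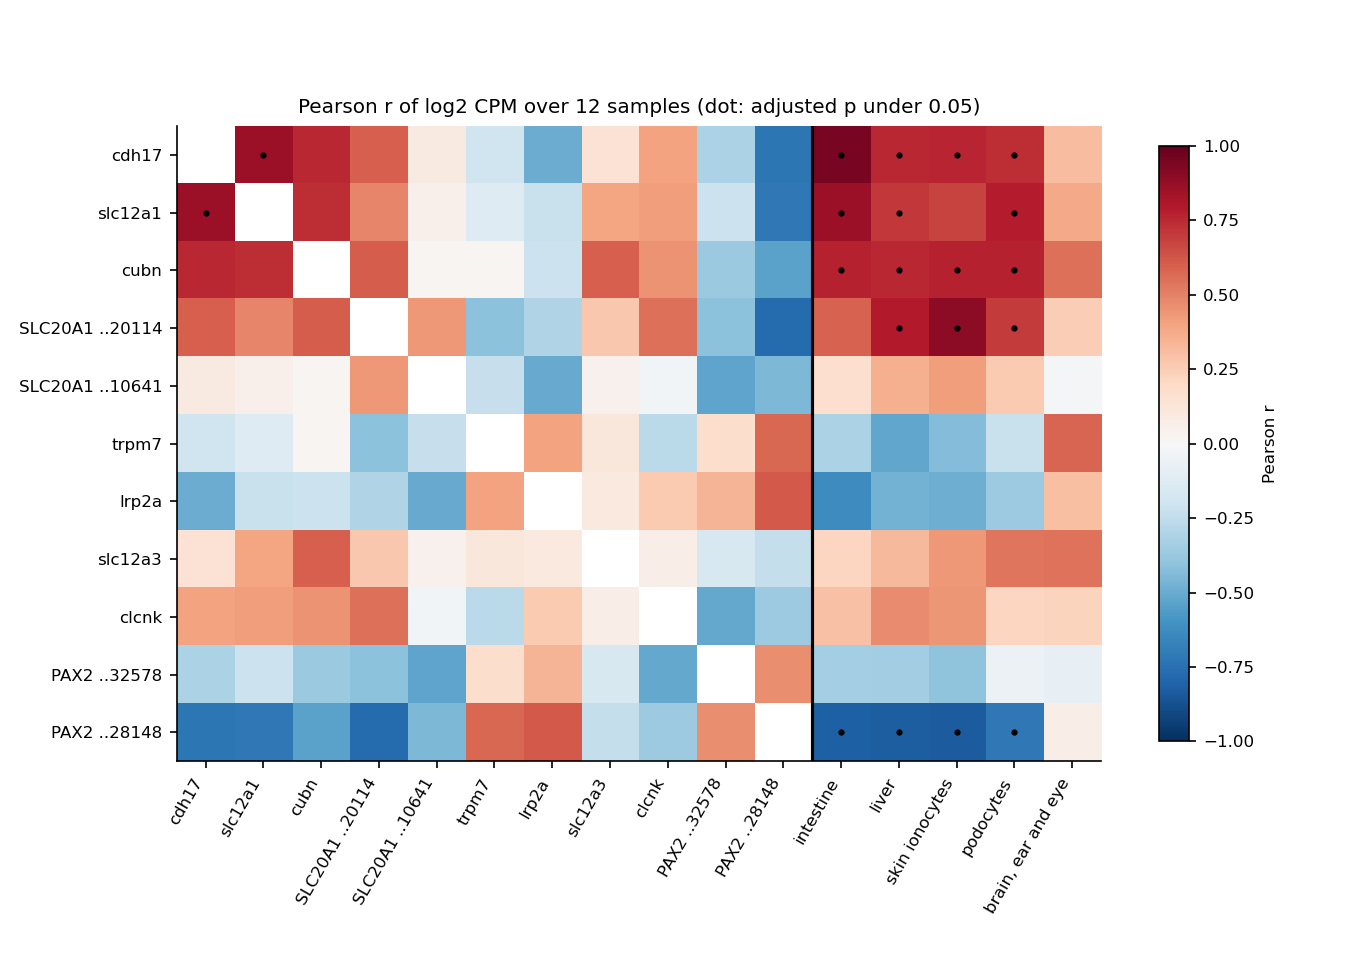
Pearson's r of log2 CPM over 12 samples (colour, -1 to 1) between the 11 pronephric rows and, right of the black line, between each row and the mean of 5 lists of genes of podocytes and of other tissues. Dots mark an adjusted permutation p under 0.05, which 1 of 55 pairs of rows and 18 of 55 pairs with a list reached, those with a list among cdh17, slc12a1, cubn, SLC20A1 ENSDARG00000020114 and PAX2 ENSDARG00000028148.

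Because several of these genes are also transcribed outside the kidney, each row was set against the mean log2 CPM of genes of other tissues. These were intestine, liver, skin ionocytes (the ion-transporting cells of the larval skin), and the midbrain-hindbrain, ear and eye. A list of podocytes, which are cells of the pronephric glomerulus, was read in the same way. 18 of the 55 pairs had an adjusted p under 0.05, 14 with a positive and 4 with a negative r, and the weakest of them had an absolute r of 0.702. Many other genes followed the same lists: over all genes tested outside the pronephric rows and the list itself, 19.3% of the pairs of gene and list reached that size with either sign, beside 32.7% of the 55 pairs, which share their rows, lists and samples. cdh17 followed the intestine list most closely, with r of 0.949 (permutation p = 1e-05, the smallest that the permutations can give, adjusted p = 0.00055) and rho of 0.923 (adjusted permutation p = 0.00165), and r without the 2 farthest samples was 0.904. r was 0.942 within elmo2-/- and 0.964 within elmo2+/+ samples. slc12a1 (0.853) and cubn (0.767) also passed with the intestine list. SLC20A1 ENSDARG00000020114 did not pass with it but followed the skin ionocyte list, with r of 0.891 (adjusted permutation p = 0.0099) and rho of 0.909 (adjusted permutation p = 0.00385). All 18 pairs kept their sign in both genotypes and without the 2 farthest samples, and all 18 also passed by rho. On log2(TPM + 0.1), SLC20A1 ENSDARG00000020114 did not pass with the liver list (r = 0.642, adjusted permutation p = 0.0761) or the podocyte list (r = 0.572, adjusted permutation p = 0.123).

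The 4 negative pairs were PAX2 ENSDARG00000028148 with the intestine, liver, skin ionocyte and podocyte lists, at r between -0.830 and -0.712. On log2(TPM + 0.1) none of these 4 passed, at r of -0.191, -0.279, -0.193 and 0.160, the last with the opposite sign. On log2 CPM, 0 of 11 rows passed with the midbrain-hindbrain, ear and eye list, PAX2 included. It was a list that 3.53% of all genes followed at that size, where 21.8% to 26.2% did so for each of the other lists. On log2(TPM + 0.1), r with this list was 0.805 for cubn and 0.750 for slc12a3, against 0.551 and 0.540 on log2 CPM. For the other rows it lay between -0.0025 and 0.653 on log2(TPM + 0.1).

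The summed levels of the marker lists overlapped between genotypes and varied widely between pools. The 8 intestine rows were detected in every sample and summed to 2187 to 3720 TPM in elmo2-/- and 1735 to 3727 TPM in elmo2+/+ samples. The 8 liver rows summed to 2626 to 9150 TPM in elmo2-/- and 2912 to 10394 TPM in elmo2+/+ samples. The 6 skin ionocyte rows summed to 19.9 to 59.0 TPM in elmo2-/- and 21.2 to 57.3 TPM in elmo2+/+ samples, and the 7 podocyte rows to 28.8 to 55.9 TPM in elmo2-/- and 32.0 to 50.3 TPM in elmo2+/+ samples. The 7 midbrain-hindbrain, ear and eye rows summed to 20.6 to 28.0 TPM in elmo2-/- and 22.3 to 34.2 TPM in elmo2+/+ samples. None of the rows in these lists was at 0 in all samples. The first principal component of all genes tested, which held 36.7% of the variance and includes the pronephric rows, had an r of 0.897 with cdh17, 0.813 with slc12a1, 0.810 with SLC20A1 ENSDARG00000020114, 0.801 with cubn and -0.809 with PAX2 ENSDARG00000028148 (adjusted permutation p of 0.0170 or less over 33 tests). Spearman's rho lay between 0.790 and 0.937 for the 4 positive ones and was -0.797 for PAX2 (permutation p of 0.00334 or less), and r without the 2 farthest samples lay between 0.710 and 0.926 and was -0.735 for PAX2. slc12a1 was also lower where the 20 most abundant genes took more of the counts (r = -0.771, adjusted permutation p = 0.0170, rho = -0.713, r without the 2 farthest samples -0.715). The sign of the component was set to give cdh17 a positive r, and the component was computed on log2 CPM only. It was fitted on these same values to hold the most variance, so the r and p-values with it describe and are no independent test. The share of all genes that reached such r, with the component or with the 20 most abundant genes, was not computed. The part of intestine, other tissues and RNA composition in the variation of the pronephric genes was not tested.

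**Figure D5:**
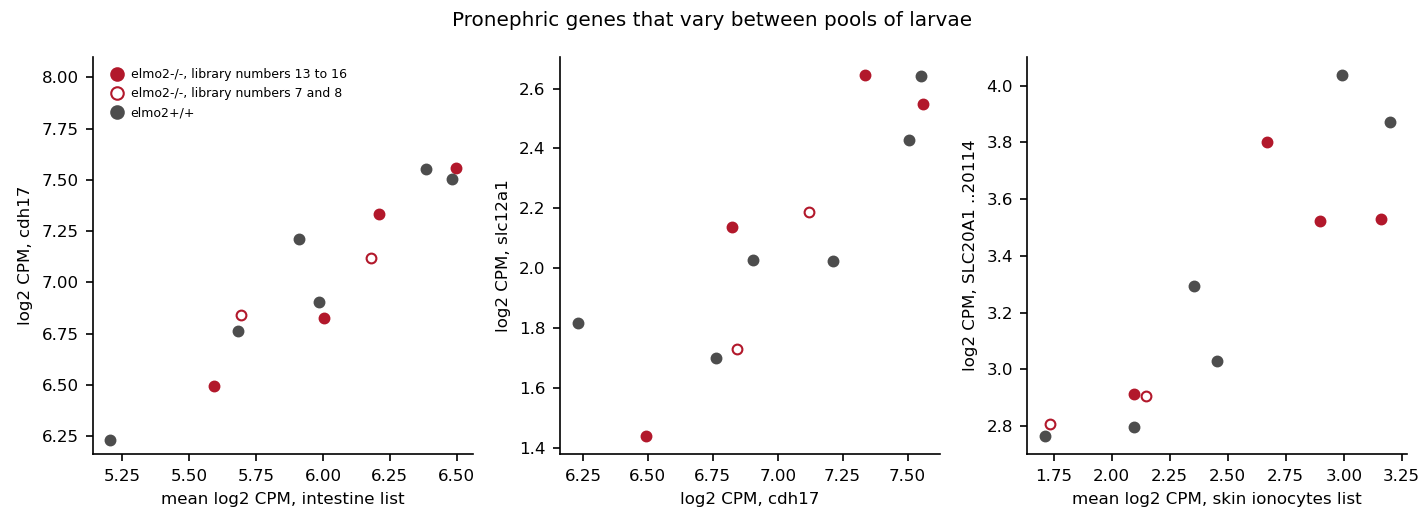
Log2 CPM of cdh17 against the mean of the intestine list (left), of slc12a1 against cdh17 (middle), and of SLC20A1 ENSDARG00000020114 against the mean of the skin ionocyte list (right), 1 point per sample and open points for elmo2-/- library numbers 7 and 8. Pearson's r is 0.949, 0.857 and 0.891, and the elmo2-/- and elmo2+/+ samples overlap along each axis.

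For each row, the gene most like it over the 12 samples is named as a description. SLC20A1 ENSDARG00000020114 was most like AGTR2, the type 2 angiotensin receptor, which stood on the list of proximal tubule genes (r = 0.958). cdh17 was most like SLC5A11, a sodium-coupled inositol and glucose transporter (r = 0.990), and SLC20A1 ENSDARG00000010641 was most like SLC38A4, an amino acid transporter (r = 0.900). The others were SIAH1, a ubiquitin ligase, for PAX2 ENSDARG00000028148 (0.961), MACROD2 for slc12a1 (0.939), etsrp, an endothelial transcription factor, for cubn (0.935) and YPEL2 for lrp2a (0.929). For PAX2 ENSDARG00000032578 it was si:ch211-198c19.3 (0.925), for trpm7 si:dkey-65b13.11 (0.913), for slc12a3 the lipase gene lipcb (0.903) and for clcnk CHMP1A (0.871). Each is the highest r over all genes tested outside the pronephric rows and is therefore high by choice.

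Other genes of the pronephros were read from lists by segment. Of 73 further rows tested on 4 lists, 38 were higher and 35 lower in elmo2-/- larvae, 2 had an unadjusted p under 0.05, both lower, and 0 had an adjusted p under 0.05 with edgeR, DESeq2 or limma. Of all genes 2.13% were lower and 2.55% higher at that unadjusted threshold. The median log2 fold change over these rows was 0.0023.

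On the proximal list 21 rows were tested, 8 higher and 13 lower, with 0 under an unadjusted p of 0.05. The smallest edgeR p-values belonged to OCRL, an inositol phosphatase needed for endocytosis by megalin, at 35.0 ± 1.12 CPM in elmo2-/- and 36.6 ± 1.47 CPM in elmo2+/+ samples (log2 fold change -0.067, exact permutation p = 0.0476), and to pdzk1ip1, at 22.2 ± 2.73 CPM in elmo2-/- and 24.7 ± 5.49 CPM in elmo2+/+ samples (-0.16, exact permutation p = 0.377). On the distal list 16 rows were tested, 9 higher and 7 lower. TMEM72, a transmembrane protein of this list, had 1.19, 1.60 and 2.07 CPM (lowest, median and highest) in elmo2-/- samples, against 1.63, 1.95 and 2.46 CPM in elmo2+/+ samples, with a log2 fold change of -0.36 (SE 0.16, exact permutation p = 0.0325, edgeR adjusted p = 0.9997). KCNJ1 ENSDARG00000091232, 1 of several rows named for the potassium channel ROMK, had 4.81 ± 0.221 CPM in elmo2-/- and 4.23 ± 0.633 CPM in elmo2+/+ samples (0.18, exact permutation p = 0.0563). The other KCNJ1 rows went in both directions, with log2 fold changes from -0.37 (ENSDARG00000086248) to 0.10 (ENSDARG00000088484).

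The duct and multiciliated cell list held 13 tested rows, 6 higher and 7 lower, with 0 under an unadjusted p of 0.05. Its smallest edgeR p-values belonged to PKD2, the ciliary channel polycystin-2, at 4.66 ± 1.70 CPM in elmo2-/- and 6.26 ± 2.12 CPM in elmo2+/+ samples (log2 fold change -0.42, exact permutation p = 0.128), and to RET, a receptor of the duct and of enteric neurons, at 28.2 ± 1.66 CPM in elmo2-/- and 29.8 ± 1.02 CPM in elmo2+/+ samples (-0.079, exact permutation p = 0.0714). Of 23 nephron transcription factors 15 were higher and 8 lower. ESRRG, an estrogen-related receptor of the distal segments, had 26.4, 29.6 and 33.1 CPM in elmo2-/- samples, against 30.4, 33.4 and 35.4 CPM in elmo2+/+ samples (-0.15, SE 0.069, exact permutation p = 0.039, edgeR adjusted p = 0.9997). PPARGC1A, a coactivator that sets the balance of proximal and distal segments in zebrafish, had 12.4 ± 1.16 CPM in elmo2-/- and 14.4 ± 2.25 CPM in elmo2+/+ samples (-0.21, exact permutation p = 0.0887).

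Paralogs could stand in for the pronephric genes or take reads from them, and how reads of near-identical copies were shared was not given in the sources used here. Of 12 paralog rows tested 4 were higher and 8 lower, and slc12a2, the broadly expressed Na-K-2Cl cotransporter, was the only one of them whose CPM did not overlap between genotypes, as in 0.198% of all genes. slc12a2 had 68.1, 70.8 and 74.8 CPM (lowest, median and highest) in elmo2-/- samples, against 75.9, 79.1 and 83.8 CPM in elmo2+/+ samples. Its log2 fold change was -0.15 (SE 0.050, exact permutation p = 0.00216), and adjusted over all genes it did not pass (edgeR adjusted p = 0.9997). The next smallest p belonged to CLCN2 ENSDARG00000062427, a chloride channel, at 2.89 ± 0.689 CPM in elmo2-/- and 3.45 ± 0.427 CPM in elmo2+/+ samples (-0.25, exact permutation p = 0.106).

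Per length, the paralog SLC20A2 stood at 15.4 ± 1.21 TPM (SD, n = 12), between both SLC20A1 rows, and slc12a2 at 12.3 ± 1.31 TPM stood above slc12a1 and slc12a3. TRPM6 at 3.96 ± 0.829 TPM lay below trpm7, lrp2b at 2.06 ± 0.301 TPM close to lrp2a, and cdh16, the kidney cadherin of mammals, at 0.871 ± 0.152 TPM below cdh17. PAX8 at 7.74 ± 1.23 TPM lay between the PAX2 rows, with PAX5 at 1.84 ± 0.397 TPM below them. slc12a10.2 at 4.75 ± 1.32 TPM was the most abundant of the slc12a10 copies, beside slc12a10.3 at 1.72 ± 0.533 TPM and slc12a10.1 at 0.553 ± 0.373 TPM. clcn2c stood at 3.59 ± 0.952 TPM and CLCN2 ENSDARG00000062427 at 1.73 ± 0.418 TPM, both above clcnk.

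Lists of tissues that share these genes gave 1 of 40 tested rows with an unadjusted p under 0.05, a higher one, where 2.55% of all genes were higher and 4.68% passed in either direction. FABP6, the ileal bile acid binding protein of the intestine list, had 139, 176 and 221 CPM (lowest, median and highest) in elmo2-/- samples, against 137, 143 and 161 CPM in elmo2+/+ samples, with a log2 fold change of 0.31 (SE 0.10, exact permutation p = 0.0281, edgeR adjusted p = 0.9997). The intestine list had 6 of 8 rows higher and a median log2 fold change of 0.063, the liver list 5 of 8 higher and 0.066, the skin ionocyte list 3 of 6 higher and 0.022, and the podocyte list 3 of 7 higher and -0.0051. The midbrain-hindbrain, ear and eye list had 2 of 7 rows higher and a median of -0.15, and the list of the thyroid and of the corpuscles of Stannius, endocrine bodies that arise from the pronephros, had 2 of 4 higher and 0.026. The remaining genes with the smallest p in these lists were ctsbb, ca15a, slc9a3.2, EN2, otomp, fabp10a, TTR, WT1, NPHS1 and both STC1 rows, with unadjusted edgeR p-values between 0.101 and 0.611.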

How the data were processed

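RNA of 30 pooled larvae per sample was sequenced on a BGISEQ-500, with 6 samples per genotype. The labels do not say that samples came from separate clutches, so p-values measure only the spread between these pools. Per the submitters' processing notes, Trim Galore 0.6.4, kallisto 0.4.6 and the build GRCz11 were used. The authors deposited estimated counts per gene, of which 43.8% of values were not whole and which were rounded here, and TPM values, scaled by the authors to transcript length and to the same total per sample. The range of depth in each genotype is given with the results, and the spread between pools limited the precision (common biological coefficient of variation 0.171). Names came from a table of gene symbols, in which 29201 of 32520 identifiers had one. No coordinates or sequences are given, because the gene table at hand is of another assembly and no sequence tables were used.

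edgeR 4.0.16 in R 4.3.3 was run with filterByExpr (minimum count 10), TMM, estimateDisp, glmQLFit and glmQLFTest, with no term beside genotype; p-values of all 22259 genes, the 11 pronephric rows included, were adjusted after Benjamini and Hochberg. The SE is the absolute log2 fold change over the root of F. Log2 CPM used a prior count of 2. Exact tests ran over all 924 splits. In simulated data with 6 samples per genotype, 100 genes with a mean above 1 CPM were changed by 1 on the log2 scale and 100 by 0.5. Of these, 89% and 32% were recovered over 22107 genes, with 10 false calls. The simulated counts of each gene were drawn independently, without the variation that pools shared across genes. How far the recovered shares hold for these data was not tested, and elmo2, at -0.93, had an edgeR adjusted p of 0.642. Alternatives were DESeq2 1.42.0, RLE factors, library size only, a looser filter (1 count in any sample) and a stricter one (1 CPM in 6), TPM in limma 3.58.1 after log2 with 1 or 0.1 added, a replicate block, each sample left out, and elmo2-/- samples of library numbers 13 to 16 or 7 and 8 only. Named genes were the pronephric rows, elmo2, in each list the genes past the adjusted threshold or otherwise the 2 with the smallest p, paralogs with their level, and the most similar gene of each row. Of the 10 genes of the rule, 1 (2 rows) is not reported here and enters no list or count, nor do its paralogs. The genes and lists were chosen with earlier results of these data known. Correlations covered 55 pairs of rows and 55 with lists, in numpy 2.4.6 and scipy 1.17.1.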

Additional observations from a re-analysis of the deposited data

Results flagged for a closer look

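Among 32 groups of 6 samples examined, which were the 11 rows and 5 ratios in each genotype, 2 had a sample far from the others, and chance alone gives about 1 in 20 groups. For clcnk, the chloride channel of the distal segments, elmo2-/- replicate 2 was at 2.84 CPM, where the other elmo2-/- samples lay between 2.28 and 2.46 CPM. For PAX2 ENSDARG00000032578, elmo2+/+ replicate 4 was at 1.81 CPM, where the other elmo2+/+ samples lay between 4.49 and 5.55 CPM. Its fold change between genotypes was not past the threshold with or without that sample.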

How the results depend on the processing

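In every alternative run, 0 of the 11 pronephric rows and 0 genes of the lists had an adjusted p under 0.05. The number of rows with an unadjusted p under 0.05 was 0, and 1 with limma on either TPM scale (trpm7, beside 4.5% and 4.48% of all genes), 1 with library numbers 7 and 8 only (slc12a3, beside 6.53%) and 0 to 1 with single samples left out (beside 3.14% to 7.25%). The number of rows without overlap was 0, and 1 with library numbers 7 and 8 only (slc12a3, beside 10.7% of all genes). Over all genes, the adjusted count was 0, and 3 with DESeq2 and 1 with limma on each scale, elmo2 among them each time, and the unadjusted count of 1041 was 688 with library numbers 13 to 16 only and 704 to 1620 with single samples left out, highest without elmo2-/- replicate 1. The median log2 fold change of the rows, -0.078, ranged from -0.095 to -0.012 with single samples left out and was 0.029 with library numbers 13 to 16 only.

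None of the fold changes that changed sign was past a threshold, and the cause was not tested. With limma on log2(TPM + 1) and log2(TPM + 0.1), SLC20A1 ENSDARG00000020114 gave 0.034 and 0.040 and slc12a1 -0.016 and -0.033. With library numbers 13 to 16 only, SLC20A1 ENSDARG00000020114 gave 0.090, cubn 0.039, slc12a3 0.088, clcnk 0.029 and cdh17 0.016. With 7 and 8 only, slc12a1 gave -0.17 and PAX2 ENSDARG00000032578 -0.055. With library size only PAX2 ENSDARG00000032578 gave -0.0075. Left-out samples turned 6 of 11 rows: SLC20A1 ENSDARG00000020114 (-0.22 to 0.088), slc12a1 (-0.085 to 0.16), slc12a3 (-0.096 to 0.011), clcnk (-0.064 to 0.052), cdh17 (-0.15 to 0.088) and PAX2 ENSDARG00000032578 (-0.14 to 0.090). Same-numbered samples did not deviate together in every pair (r from -0.25 to 0.62, mean 0.16), and 4 of 12 samples correlated best with their own number. These values do not decide whether the numbers pair the samples. With the replicate number as a block, 0 of 11 rows had an unadjusted p under 0.05, beside 1445 genes or 6.49% of all genes. In that fit clcnk gave 0.0053 and cdh17 0.0017. By Pearson's r, the correlated pairs of rows, 1 of 55, numbered 5 on log2(TPM + 0.1) and 2 with genotype means removed, and those with lists, 18 of 55, numbered 15 and 18. The 15 pairs with lists on log2(TPM + 0.1) were not all among the 18. The r of PAX2 ENSDARG00000028148 with podocytes was 0.160 on log2(TPM + 0.1). Segment ratios moved by less than 1 SD with 0.1 added to each TPM or with counts in place of TPM. Leaving out 1 sample could not move a mean level or a ratio difference by 1 SD. Neither could taking the elmo2+/+ samples alone for a level, and the replicate block leaves a ratio difference unchanged by construction. The levels per length were therefore not put to a test by these alternatives. Estimated counts were low in clcnk, PAX2 ENSDARG00000032578 and slc12a1, at 39 to 59, 36 to 114 and 51 to 134 per sample.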
